A study of Mus musculus with 8 samples.

Results

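Transcripts of 10 marker genes of Kupffer cells, the resident macrophages of the liver, were followed gene by gene and array by array in bone marrow (BM) cells, in primary hepatocytes and in hepatocytes derived from transplanted BM cells. The genes were Adgre1, Csf1r, Clec4f, Vsig4, Timd4, Cd5l, Marco, C1qa, C1qb and C1qc. They were found on the arrays by gene name or accession (Adgre1 under its older name Emr1), and all 10 had probes among the 49826 genes of one array design and the 34761 genes of the other. Each design carried 13 probes for them. For 8 of the 10 genes a probe of identical sequence stood on both designs, among 13232 genes for which that was so, and Adgre1 and Vsig4 had none.

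Kupffer cells line the liver sinusoids and remove particles, microbes and spent red cells from the portal blood. In the mouse they carry the lectin CLEC4F, the complement receptor VSIG4 and the phosphatidylserine receptor TIMD4, they take up ligands through scavenger receptors such as MARCO, and they make the C1q chains of the classical complement pathway. Their survival depends on CSF1R, the receptor of the growth factors CSF1 and IL34, and transcription factors of the PU.1, LXR and SPIC families act in their gene programme.

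There were 4 groups with 2 arrays each, and each array held RNA of cells pooled from 3 mice. Lin- BM cells (arrays L3 and L4) came from young adult female eGFP transgenic mice on a C57Bl6/J background. They were depleted of cells carrying lineage markers, CD11b and Gr-1 of myeloid cells among them. BM-derived hepatocytes were sorted as eGFP-positive cells 1 month (B1 and B2) or 5 months (G1 and G3) after such cells were given to young adult male hemophilia A mice with the factor VIII allele F8tm1Kaz on a mixed strain background, whose livers had been injured with acetaminophen. Primary hepatocytes (H2 and H4) were the reference, and their strain and treatment are not given in the sources used here. Liver cells were freed by collagenase perfusion, and hepatocytes were taken by low-speed centrifugation. The eGFP transgene is active in nearly all cell types, so that the sort itself selects donor cells of any type. The methods add that sorted cells were stained for albumin. The methods count the 2 arrays of a group as 2 experiments, each with its own pool, and p-values measure the spread between these 2 arrays. In bulk RNA, fewer cells of a type and less RNA per cell cannot be told apart.

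Lin- BM cells and the 1-month hepatocytes lay on one slide, and primary hepatocytes and the 5-month hepatocytes on another slide of the other design. Levels are given as the log2 signal minus the 75th percentile of the array, so that 0 is the level of a probe at that percentile. Probes well above background made up 47.7% to 58.6% of an array. The 75th percentile of the signal was lowest on B1 (75.5) and B2 (89.5) and lay between 122 and 193 elsewhere. All 8 hepatocyte markers tested were well above background on each array of hepatocytes, and 3 of 8 were on both arrays of Lin- BM cells.

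The 250 bases before the transcription start could be read for 7 of the 10 genes from RefSeq (GRCm38.p6). Any link between these sequences and the levels on the arrays was not tested. Csf1r is named only, as are Adgre1 and C1qa. Capitals mark matches, on either strand, to the PU.1 core GAGGAA or the Maf half-site TGCTGAC, and each sequence runs 5′ to 3′ on the strand of its gene.
Clec4f, chr6:83656117-83656366, minus strand: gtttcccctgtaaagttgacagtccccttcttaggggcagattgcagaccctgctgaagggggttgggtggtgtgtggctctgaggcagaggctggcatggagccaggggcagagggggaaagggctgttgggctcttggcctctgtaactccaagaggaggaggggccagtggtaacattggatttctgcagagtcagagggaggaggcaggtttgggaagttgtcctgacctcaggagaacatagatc
Vsig4, chrX:96293439-96293688, minus strand: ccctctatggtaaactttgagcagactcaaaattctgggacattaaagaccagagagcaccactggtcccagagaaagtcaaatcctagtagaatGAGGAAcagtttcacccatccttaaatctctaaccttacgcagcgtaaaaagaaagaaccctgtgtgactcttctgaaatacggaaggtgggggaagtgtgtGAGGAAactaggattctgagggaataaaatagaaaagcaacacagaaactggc
Timd4, chr11:46810549-46810798, plus strand: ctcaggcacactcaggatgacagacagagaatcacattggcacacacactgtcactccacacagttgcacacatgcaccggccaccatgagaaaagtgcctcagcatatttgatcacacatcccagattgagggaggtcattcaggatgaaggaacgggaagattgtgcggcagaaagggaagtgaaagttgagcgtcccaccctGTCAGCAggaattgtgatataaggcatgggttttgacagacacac
Cd5l, chr3:87357631-87357880, plus strand: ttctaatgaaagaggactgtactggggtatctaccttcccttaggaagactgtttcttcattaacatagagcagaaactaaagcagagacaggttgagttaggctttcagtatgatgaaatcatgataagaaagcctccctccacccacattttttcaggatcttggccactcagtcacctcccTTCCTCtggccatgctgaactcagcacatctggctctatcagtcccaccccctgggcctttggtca
Marco, chr1:120505025-120505274, minus strand: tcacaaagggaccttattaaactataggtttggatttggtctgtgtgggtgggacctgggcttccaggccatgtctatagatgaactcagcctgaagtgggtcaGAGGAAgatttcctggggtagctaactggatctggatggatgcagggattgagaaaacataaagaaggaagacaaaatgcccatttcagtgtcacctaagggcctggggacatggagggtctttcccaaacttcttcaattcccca
C1qb, chr4:136886201-136886450, minus strand: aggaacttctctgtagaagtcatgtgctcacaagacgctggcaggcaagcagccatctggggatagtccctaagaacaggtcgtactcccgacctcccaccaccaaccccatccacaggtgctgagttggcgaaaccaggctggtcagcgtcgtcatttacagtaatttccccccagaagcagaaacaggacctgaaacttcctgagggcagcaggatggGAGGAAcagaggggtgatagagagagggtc
C1qc, chr4:136892915-136893164, minus strand: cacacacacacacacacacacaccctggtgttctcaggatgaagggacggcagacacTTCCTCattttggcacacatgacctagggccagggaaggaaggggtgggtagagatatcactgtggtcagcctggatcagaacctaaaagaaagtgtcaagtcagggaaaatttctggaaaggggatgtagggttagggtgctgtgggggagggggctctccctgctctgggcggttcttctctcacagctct
The PU.1 core stood in 5 of these 7 windows, in those of Vsig4 (2 matches), Cd5l, Marco, C1qb and C1qc, against 23.4% of all 32536 promoter windows of this length. The Maf half-site stood in the window of Timd4, against 3.79% of all windows. The E-box CACGTG, the motif of the MiT-TFE family, stood in 0 of the 7, against 6.04% of all. The window of Clec4f held none of the 3 motifs. The 3 motifs do not overlap one another in these windows. A match describes letters and is not a binding site.

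**Figure D1:**
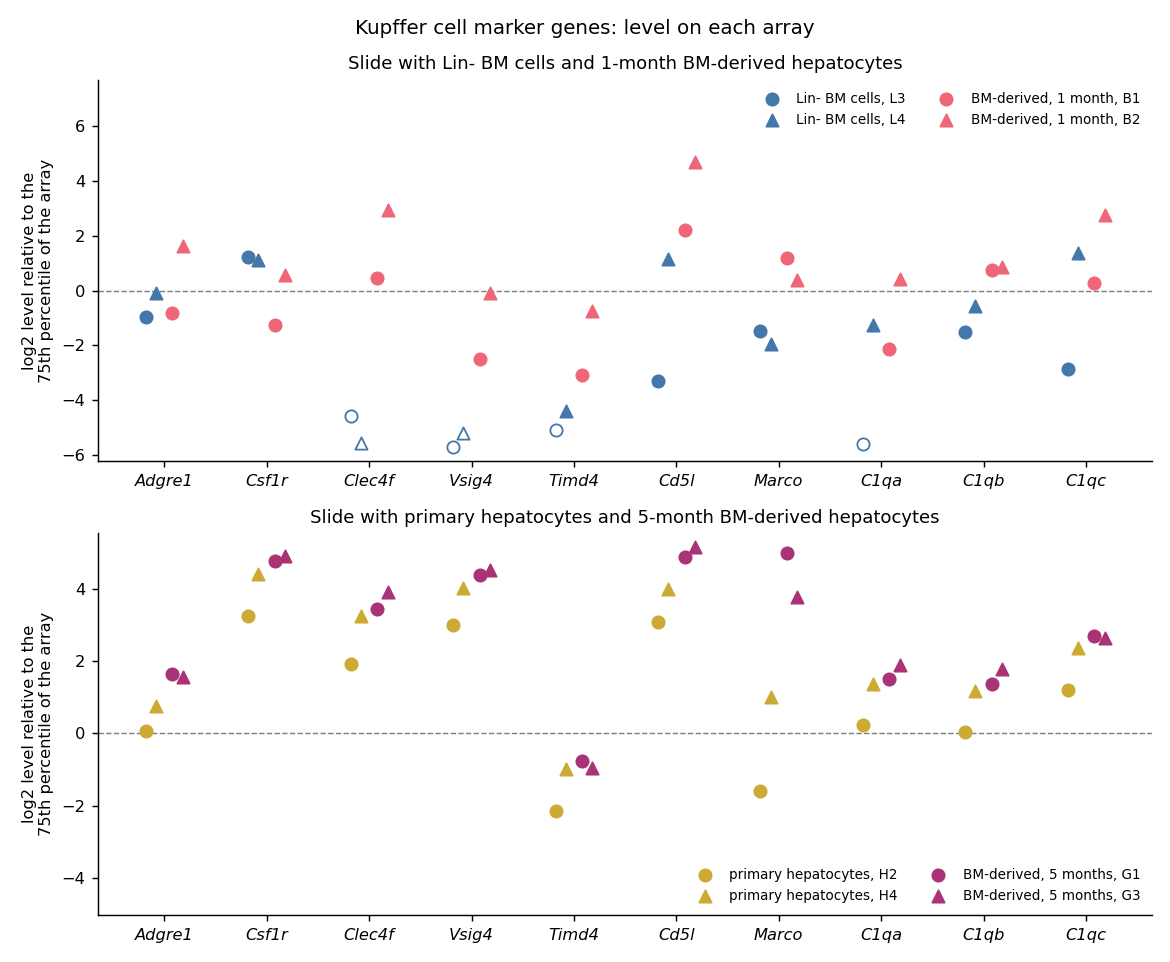
Levels of the 10 genes on each array, as log2 relative to the 75th percentile of that array, with 1 probe (the brightest) per gene and slide. Circles and triangles are the first and second array of a group, and open symbols mark probes not well above background. Clec4f and Vsig4 are open on both arrays of Lin- BM cells and filled on all arrays of hepatocytes. Levels of different genes come from different probes and are not comparable.

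The first comparison within a slide asked how the BM-derived hepatocytes at 1 month differed from the cells that had been transplanted. Of the 10 Kupffer cell genes, 9 were measured higher at 1 month than in Lin- BM cells and 5 were called higher: Clec4f, Vsig4, Timd4, Marco and C1qb. Calls were made by limma where the p adjusted over all 28522 genes (Benjamini-Hochberg) was under 0.05 and the log2 change was larger than 0.6 in either direction. Of all genes tested, 28.8% were called higher and 26.5% lower, so the 5 of 10 are read against that share. The median log2 change of the 10 genes was 2.53, and that of all genes was 0.07. Clec4f, Vsig4, Timd4 and C1qa entered this fit only through the 1-month group. The filter therefore favoured a rise for them, in the calls and in the median.

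Clec4f, the galactose-binding lectin of Kupffer cells, was not well above background on either Lin- array, with levels of -4.58 (L3) and -5.56 (L4). At 1 month its levels were 0.45 (B1) and 2.94 (B2). Both 1-month arrays lay far above both Lin- arrays, and the gene was called at a log2 change of 6.77 (SE 0.89, adjusted p = 0.0038 by limma). Because the low side was background, the difference is a bound, at least 73.2-fold. For such bounds the low group was set, on each array, to the higher of its own level and the lowest level that any probe well above background had on that array.

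Vsig4, which binds complement C3 fragments, had levels of -5.71 (L3) and -5.20 (L4), both not well above background, and of -2.49 (B1) and -0.07 (B2). The groups did not overlap, and the change was at least 9.27-fold (log2 change 4.17, SE 0.83, adjusted p = 0.012 by limma). Timd4, the receptor with which macrophages take up dying cells, had levels of -5.09 (L3, not well above background), -4.40 (L4), -3.06 (B1) and -0.74 (B2). It was dim in all 4 and highest on B2, and its log2 change of 2.84 (SE 0.81) was called at an adjusted p of 0.036 by limma. Without L3, L4 or B2, Timd4 was no longer called.

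Marco, a class A scavenger receptor for bacteria and particles, had levels of -1.48 (L3), -1.94 (L4), 1.20 (B1) and 0.40 (B2). It was well above background on all 4 arrays, the groups did not overlap, and the log2 change of 2.51 (SE 0.39) was called at an adjusted p of 0.0061 by limma. Cd5l, a secreted protein of the scavenger receptor cysteine-rich family that macrophages make, behaved otherwise. Its levels were -3.29 (L3), 1.16 (L4), 2.20 (B1) and 4.68 (B2). The groups did not overlap, but L3 and L4 differed by 4.45 on the log2 scale, or 21.9-fold, and the log2 change of 4.50 (SE 1.64) was not called (adjusted p = 0.069 by limma). Without L4 it was called at 6.73.

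Of the 3 chains of C1q, the first component of the classical complement pathway, 1 was called. C1qb had levels of -1.49 (L3), -0.56 (L4), 0.76 (B1) and 0.88 (B2), with no overlap between groups, and was called at a log2 change of 1.84 (SE 0.39, adjusted p = 0.015 by limma). C1qa was at -5.61 (L3, not well above background), -1.24 (L4), -2.14 (B1) and 0.41 (B2), and C1qc at -2.87 (L3), 1.39 (L4), 0.27 (B1) and 2.77 (B2). For both chains L4 lay above B1, so that the groups overlapped. Neither the C1qa change of 2.56 (SE 1.64, adjusted p = 0.23) nor the C1qc change of 2.26 (SE 1.6, adjusted p = 0.27) was called by limma. Whether the 3 chains differed from each other in their change was not tested.

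Csf1r and Adgre1 were well above background in Lin- BM cells. Adgre1, the F4/80 antigen of mouse macrophages, had levels of -0.96 (L3), -0.10 (L4), -0.81 (B1) and 1.61 (B2), the groups overlapped, and the log2 change of 0.93 (SE 0.86, adjusted p = 0.39 by limma) was not called. Its second probe was not well above background on any of the 4 arrays. Csf1r was the one member measured lower at 1 month. Its brightest probe stood at 1.22 (L3), 1.12 (L4), -1.26 (B1) and 0.56 (B2), a log2 change of -1.52 (SE 0.63, adjusted p = 0.097 by limma) that was not called. A second Csf1r probe was above background in Lin- BM cells at -1.79 (L3) and -2.26 (L4) and was not on either 1-month array. With each probe as its own row that probe was called at least 2.83-fold lower (adjusted p = 0.0080 by limma). The third Csf1r probe was well above background on L3 alone.

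By the brightest probe of each gene, the arrays of both groups did not overlap in 7 of the 10 genes. Of these, 6 genes were higher at 1 month and Csf1r was lower. Over all genes, 43.1% were higher without overlap and 38.9% lower without overlap, so a separation of 2 arrays from 2 was common on this slide. At an unadjusted p under 0.05, limma passed 6 of the 10 genes and 62.0% of all genes. The methods' t-test, unadjusted, called 2 of the 10 higher (Clec4f and Marco) and 24.5% of all genes, and after Benjamini-Hochberg adjustment 0 of the 10 and 9.92% of all genes. An exact permutation test of 2 arrays against 2 cannot give a two-sided p under 0.333.

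**Figure D2:**
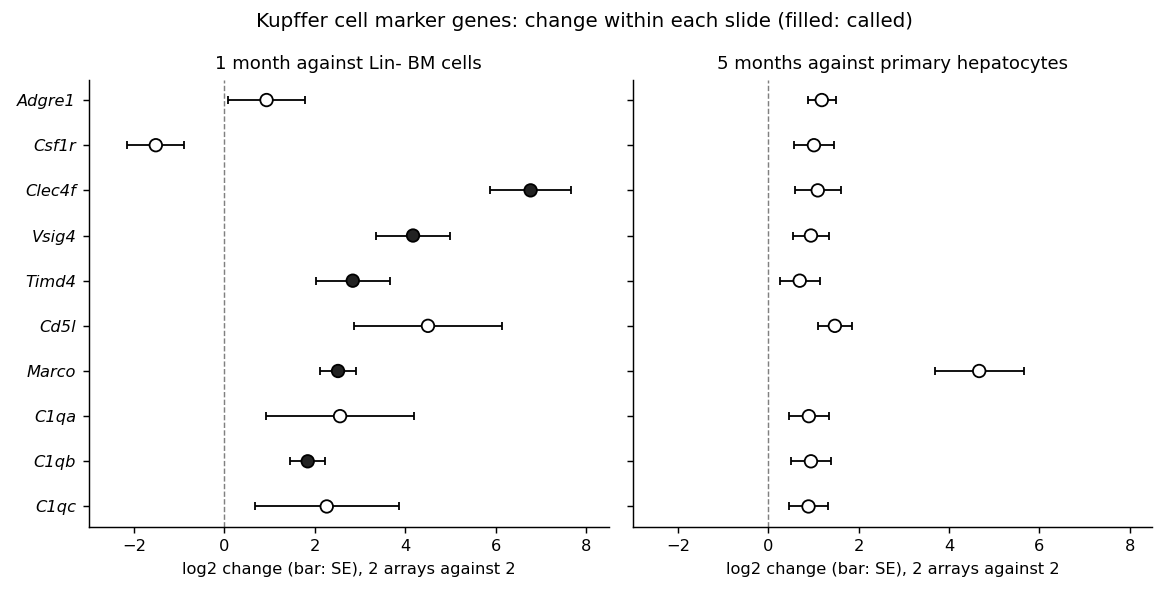
Log2 changes of the 10 genes within each slide, 1 month minus Lin- BM cells on the left and 5 months minus primary hepatocytes on the right, from 2 arrays against 2. Bars are SE, filled points were called by limma and open points were not. On the left 5 genes are filled and Csf1r alone lies below 0. On the right all 10 lie above 0 and all are open.

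The second comparison within a slide set the 5-month hepatocytes beside primary hepatocytes. Each of the 10 genes was well above background on all 4 arrays, those of primary hepatocytes included. All 10 were measured higher at 5 months, by 0.70 to 4.67 on the log2 scale with a median of 0.98 against 0.04 for all genes, and 0 of 10 were called by limma. Calls were rare on this slide, with 0.366% of 19929 genes called higher and 0.186% lower. At an unadjusted p under 0.05, limma passed Marco, Cd5l and Adgre1, 3 of the 10 genes, against 14.1% of all genes. The methods' t-test called 0 of the 10 higher, adjusted or not, against 0% and 3.75% of all genes in that order.

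Marco had levels of -1.59 (H2), 1.01 (H4), 4.98 (G1) and 3.77 (G3). Both 5-month arrays lay above both arrays of primary hepatocytes, but H2 and H4 differed by 2.60 on the log2 scale, and the change of 4.67 (SE 0.99) had a p of 0.0073 and an adjusted p of 0.18 by limma. Cd5l stood at 3.08 (H2), 4.0 (H4), 4.87 (G1) and 5.16 (G3), with a change of 1.47 (SE 0.38, adjusted p = 0.24 by limma). Adgre1 stood at 0.07 (H2), 0.76 (H4), 1.63 (G1) and 1.57 (G3), with a change of 1.19 (SE 0.30, adjusted p = 0.24 by limma), and its other probe gave 1.12. In all 3 genes the groups did not overlap, and H2 was the lowest array.

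Clec4f stood at 1.92 (H2), 3.24 (H4), 3.43 (G1) and 3.91 (G3), a change of 1.1 (SE 0.51, adjusted p = 0.44 by limma). Vsig4 stood at 2.99 (H2), 4.02 (H4), 4.38 (G1) and 4.51 (G3), a change of 0.95 (SE 0.40, adjusted p = 0.40 by limma). In both genes H4 lay closer to the 5-month arrays than to H2. Timd4, C1qa, C1qb and C1qc gave changes between 0.70 and 0.95. The 3 probes of Csf1r disagreed, with changes of 1.01, 0.52 and -0.07.

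By the brightest probe of each gene, the 4 arrays separated without overlap in all 10 genes, each higher at 5 months. The other Csf1r probes overlapped, with H4 above G1 in each (-1.25 and -1.57, 0.78 and 0.53). Over all genes, 25.2% were higher without overlap and 22.7% lower without overlap. The 10 genes are not 10 separate observations, since they were measured on the same 4 arrays and H2 was the lowest in each. The count of calls rested on single arrays of primary hepatocytes. Without H4, 6 of 10 were called higher (Adgre1, Csf1r, Vsig4, Cd5l, Marco and C1qc, against 3.34% of all genes), with Marco at 5.97 and Cd5l at 1.93. Without H2, Marco was the one called, at 3.37, against 3.56% of all genes. In both fits the spread came from G1 and G3, and the lone array of primary hepatocytes was assumed to vary like them.

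The spread between the 2 arrays of a group was itself shared by most of the 10 genes. At 1 month, B2 lay above B1 by 2.32 to 2.55 on the log2 scale for Adgre1, Clec4f, Vsig4, Timd4, Cd5l, C1qa and C1qc, and by 1.82 for Csf1r. C1qb differed by 0.12, and Marco was lower on B2 by 0.81 (a difference of -0.81). Of the 10, 8 lay above 0.88, the 95th percentile of that difference over 22817 genes. C1qb and Marco, the 2 that did not, had the smallest SE of the 10 in the comparison with Lin- BM cells.

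On the same pair of arrays the general macrophage genes, which are shared by macrophages of many tissues, were higher on B2 in 11 of 12 with a median of 0.89. The leukocyte gene Ptprc (CD45) was higher by 2.18. Stellate cell genes were higher in 6 of 6 with a median of 0.83. Hepatocyte genes had a median of 0.04 and sinusoidal endothelial genes a median of 0.16. Other Kupffer cell genes differed by -0.63 (Hmox1) to 2.77 (Folr2), with a median of 0.38. The part that the cell make-up of the 2 samples had in these differences was not tested.

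**Figure D3:**
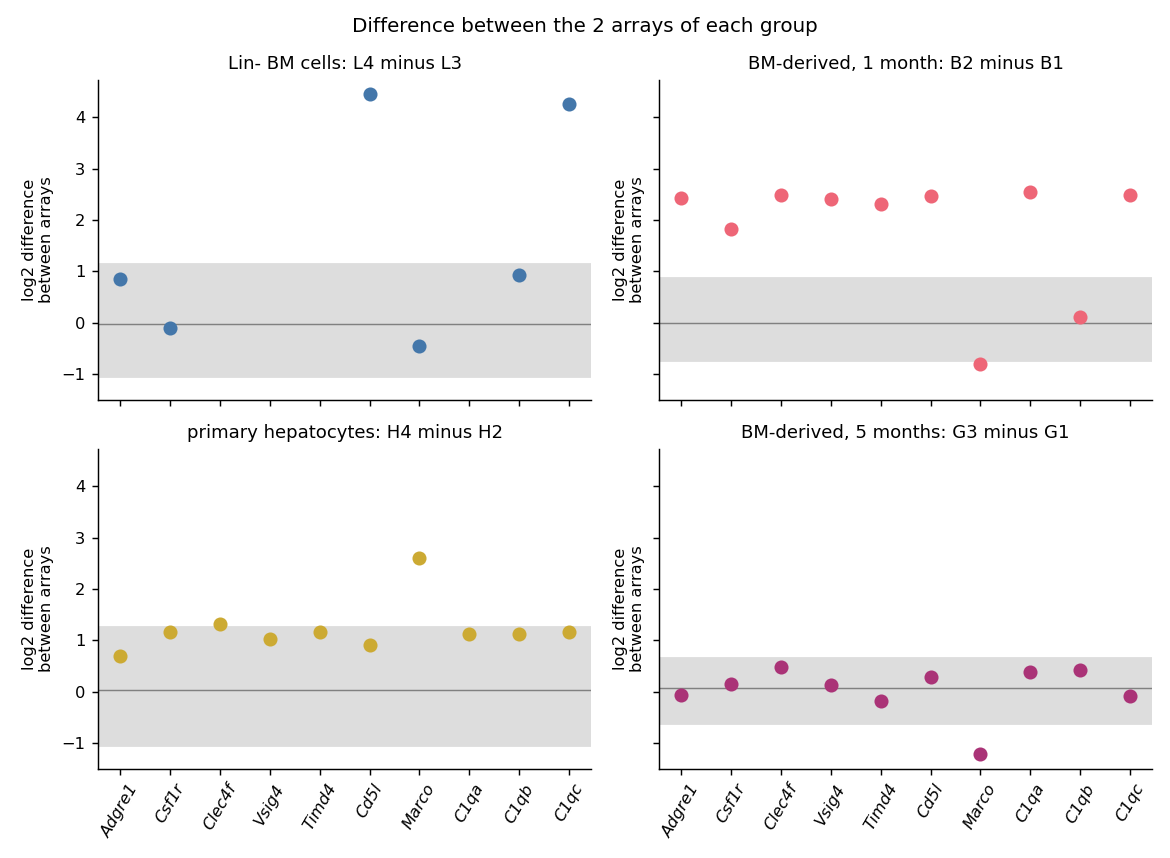
Log2 difference between the second and the first array of each group for the 10 genes. The grey band runs from the 5th to the 95th percentile over all genes well above background on both arrays, and the line is their median. Members not well above background on both arrays have no point (Clec4f, Vsig4, Timd4 and C1qa in Lin- BM cells). At 1 month 8 genes lie above the band, at 5 months none does, and Marco lies below it at both times.

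Among Lin- BM cells, L4 lay above L3 by 4.45 for Cd5l and by 4.26 for C1qc (19.1-fold), both beyond the 95th percentile of 1.14 over 26791 genes. C1qb differed by 0.94, Adgre1 by 0.86, Csf1r by -0.10 and Marco by -0.46. C1qa was well above background on L4 and not on L3. The other Kupffer cell genes were higher on L4 in 5 of 6, with a median of 1.69, while neutrophil genes were lower in 8 of 8 with a median of -1.45. The part that the cell make-up of L3 and L4 had in these differences was not tested.

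Among primary hepatocytes, H4 lay above H2 in all 10 genes, by 0.69 to 2.60 with a median of 1.15. Clec4f at 1.32 and Marco at 2.60 were past the 95th percentile of 1.26. Stellate cell genes were higher on H4 with a median of 1.19, general macrophage genes with a median of 0.72 and hepatocyte genes with a median of 0.28. At 5 months G3 and G1 differed by -1.21 (Marco) to 0.48, with a median of 0.14, and none of the 10 lay above the 95th percentile of 0.65. On this pair neutrophil genes were lower on G3 in 3 of 4 with a median of -2.28, and monocyte genes in 5 of 5 with a median of -0.16. Their part in the difference of Marco was not tested. The C1qc probe was spotted several times on this design, which gives the spread between spots. On H2 its 10 spots had an SD of 0.055 on the log2 scale, and on H4 its 8 spots had an SD of 0.042, while the 2 arrays differed by 1.17.

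Summed over the 10 genes, with levels taken back to the linear scale, the signal was 3.90 (L3), 9.41 (L4), 12.7 (B1) and 50.6 (B2) times the 75th percentile on the first slide. On the second it was 35.8 (H2), 76.9 (H4), 135 (G1) and 134 (G3). Within each of the first 3 pairs the second array had the higher sum, and at 5 months the sums were close. Bright probes weigh most in such a sum, as Cd5l did on B2 with a log2 level of 4.68. At 5 months, 6 of the 10 genes were higher on G3. Marco was lower there (4.98 on G1, 3.77 on G3) and Cd5l higher (4.87 and 5.16), so the close sums hide opposite differences. Over the same pair B1 and B2 the hepatocyte sum was 1909 and 1878. The slides carry different probes for some genes, and their sums are not comparable.

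Across slides, the 8 genes with a probe of identical sequence could be set side by side in the 4 groups. Slide, design and group go together in these comparisons and cannot be told apart. Levels here are relative to the 75th percentile over the shared probes, and the 4 groups share 1 estimate of the spread. Lin- BM cells had the lowest mean in 7 of the 8 genes, with Csf1r as the exception, and the 5-month hepatocytes had the highest mean in all 8. Of the 24 steps between neighbouring groups in these orders, 5 were called by limma, and the arrays of neighbours overlapped in 14. The orders came from the same values as the tests, and the share of such steps over all genes was not computed. These counts are therefore a description only.

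**Figure D4:**
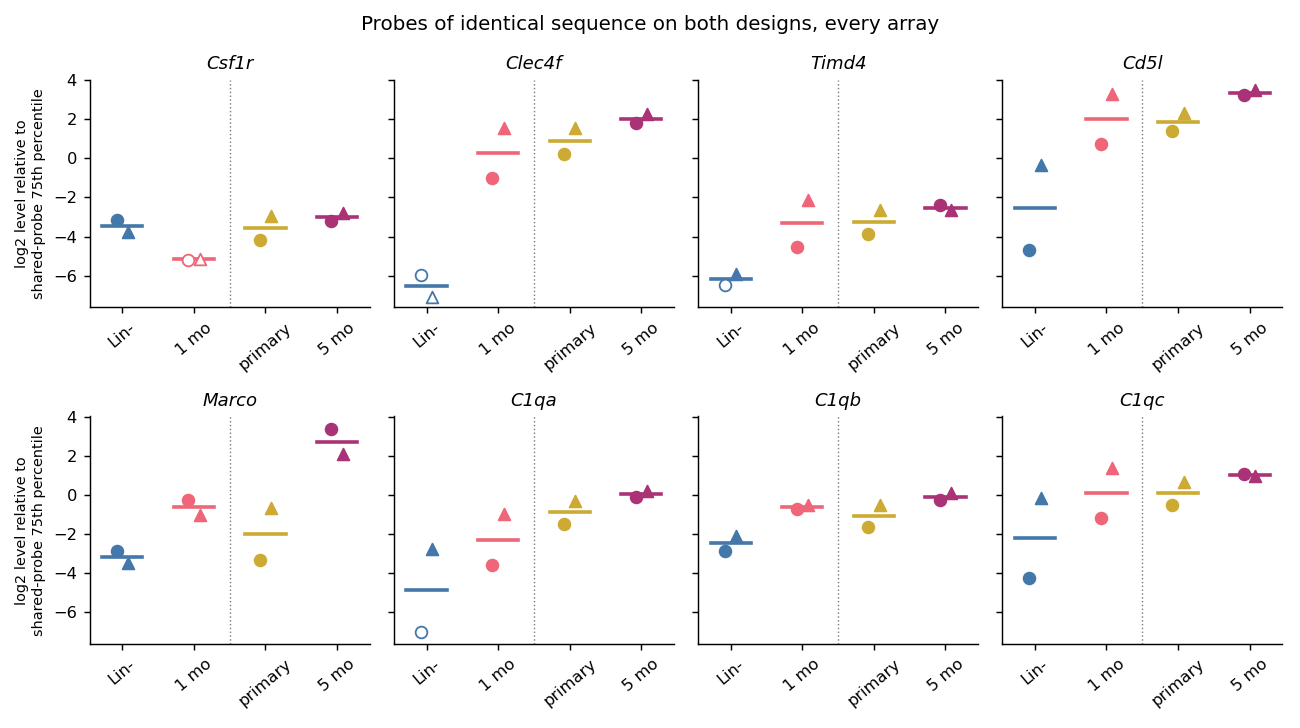
Levels of the 8 genes with a probe of identical sequence on both designs, as log2 relative to the 75th percentile of those probes, on every array. Horizontal lines are group means, open symbols are not well above background, and the dotted line separates the slides. The 5-month mean is the highest in each panel, and both 1-month values of Csf1r are open.

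Clec4f had means of -6.52 ± 0.80 in Lin- BM cells, 0.28 ± 1.80 at 1 month, 0.89 ± 0.96 in primary hepatocytes and 2.03 ± 0.31 at 5 months (SD, n = 2). Its step from Lin- BM cells to 1 month was called (6.80), and neither step between the groups of hepatocytes was, although the arrays of primary and 5-month hepatocytes did not overlap. Timd4 had the same order, with means of -6.19 ± 0.38, -3.32 ± 1.68, -3.25 ± 0.85 and -2.51 ± 0.16 (SD, n = 2), and its first step was called (2.87). C1qa had that order too, with means of -4.87 ± 2.99, -2.29 ± 1.84, -0.89 ± 0.83 and 0.05 ± 0.23 (SD, n = 2), and no step was called.

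Cd5l had means of -2.51 ± 3.04 in Lin- BM cells, 1.85 ± 0.67 in primary hepatocytes, 2.02 ± 1.79 at 1 month and 3.37 ± 0.18 at 5 months (SD, n = 2). Its first step was called (4.36), as was that of C1qb (1.40), whose means in this order were -2.47 ± 0.56, -1.07 ± 0.82, -0.60 ± 0.12 and -0.09 ± 0.26 (SD, n = 2). C1qc had the same order with means of -2.19 ± 2.91, 0.09 ± 0.85, 0.10 ± 1.81 and 1.02 ± 0.09 (SD, n = 2), and no step was called. In all 3 genes the primary and the 1-month hepatocytes overlapped.

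Marco and Csf1r had patterns of their own. The means of Marco were -3.16 ± 0.43 in Lin- BM cells, -1.98 ± 1.86 in primary hepatocytes, -0.62 ± 0.53 at 1 month and 2.73 ± 0.89 at 5 months (SD, n = 2), and the last step was the one called (3.35). The shared probe of Csf1r, which is dim, was lowest at 1 month, at -5.20 (B1) and -5.14 (B2) and not well above background, and stood at -4.19 (H2), -2.92 (H4), -3.16 (L3), -3.78 (L4), -3.19 (G1) and -2.79 (G3). None of its steps was called. The brightest Csf1r probe of the first slide, which is not shared, was well above background on both 1-month arrays.

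Set against the other time point, the 5-month hepatocytes were measured higher than the 1-month ones in all 8 genes, with a median log2 change of 1.55 against -0.14 for all 9226 genes. Marco (3.35, SE 0.87, adjusted p = 0.045) and Csf1r (2.18, SE 0.45, adjusted p = 0.023) were called higher by limma, where 5.84% of all genes were called higher and 11.3% lower. For the dim shared probe of Csf1r the difference is at least 4.52-fold, but with normexp background correction it was 0.07 (adjusted p = 0.80 by limma). Neither call held with any 1 of the 4 arrays of these groups left out, where calls over all genes were rarer too. Over the 14 alternatives the change of Marco ranged from 2.72 to 3.98.

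Between the 1-month hepatocytes and primary hepatocytes, 4 of the 8 genes were measured higher, with a median of -0.03 against 0.18 for all genes, and 0 were called by limma. Of all genes, 11.7% were called higher and 5.13% lower. At an unadjusted p under 0.05 limma passed Csf1r (-1.61, SE 0.45, adjusted p = 0.055), 1 of 8, and the methods' t-test called 0 higher. The intervals are wide here, since the SE of the 8 changes ran from 0.45 to 1.42.

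Against Lin- BM cells, 6 of the 8 genes were called higher at 5 months (Clec4f, Timd4, Cd5l, Marco, C1qa and C1qb) and 5 of 8 in primary hepatocytes (the same without Marco). Clec4f, Timd4 and C1qa entered the fit only through groups of hepatocytes, so the filter favoured this direction for them. At 5 months 29.3% of all genes were called higher and 37.8% lower, and in primary hepatocytes 29.3% were called higher and 38.1% lower. The medians of the 8 genes were 4.30 at 5 months and 2.61 in primary hepatocytes, against -0.30 and -0.29 for all genes. Clec4f was at least 308-fold higher at 5 months and at least 140-fold higher in primary hepatocytes. Marco gave 5.89 (SE 0.87, adjusted p = 0.0011) at 5 months and 1.18 (SE 0.87, adjusted p = 0.27) in primary hepatocytes by limma. These comparisons share the 2 Lin- arrays, and without L3 the calls in primary hepatocytes fell from 5 to 1 (Clec4f), as they did without H4. Of all genes 26.4% were called higher without L3 and 27.1% without H4.

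The remaining genes of the macrophage programme were taken from lists written for other cell types and for partners of the 10 genes. At 1 month against Lin- BM cells, 6 of 9 other Kupffer cell genes were called higher and none lower, with a median of 2.96. This count and those of the lists below stand beside 28.8% of all genes called higher and 26.5% lower. Nr1h3, which codes for LXR alpha, rose by 6.69 on the log2 scale, and Msr1, a scavenger receptor, rose at least 16.9-fold. Between B1 and B2, 4 of 8 genes of this list were higher on B2, with Nr1h3 at -0.01 and Msr1 at -0.19. Which cells gave the rise of these genes was not tested. Spic, the transcription factor of iron-recycling macrophages, was not called (-1.63, adjusted p = 0.12 by limma).

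Among 15 general macrophage genes tested, 2 were called higher and 8 lower, with a median of -2.05. Mertk, a receptor for dying cells, rose at least 13.2-fold. Irf8 (-5.43) and Tyrobp (-4.98) had the largest falls. Spi1, which codes for PU.1, was well above background on both Lin- arrays and on neither 1-month array, and its change of -0.87 was not called (adjusted p = 0.29 by limma).

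Most genes of other blood cells fell. All 8 monocyte genes were called lower, with F13a1 at least 232-fold lower. All 8 neutrophil genes were called lower (Mpo -10.34, and S100a8 at least 252-fold lower), as were 5 of 5 leukocyte genes (Coro1a -8.07, Ptprc -7.40) and 5 of 7 lymphocyte genes (Cd79b -8.74, with B1 not well above background, and Cd3d at least 346-fold lower). Of 5 erythroid genes 4 were called lower (Hba-a1 -6.65, Klf1 -4.56) and Alas2 was called higher at 1.73. The brightest Ptprc probe stayed well above background at 1 month, at -2.93 (B1) and -0.75 (B2), and 2 other Ptprc probes were not above it on either 1-month array.

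Genes of other liver cells rose in most cases. All 8 hepatocyte genes were called higher, with Alb at least 21241-fold and Cyp2e1 at least 5634-fold higher. Of 8 sinusoidal endothelial genes 7 were called higher (Gpr182 at least 293-fold, Clec4g by 7.77) and Pecam1 lower (-2.52). Of 7 stellate cell genes 3 were called higher (Colec11 by 5.41, Lrat at least 12.2-fold) and 2 lower (Col1a1 at least 361-fold, Pdgfrb -4.09). The summed level of sinusoidal endothelial genes was 4.29 (L3) and 3.91 (L4) in Lin- BM cells and 74.9 (B1) and 81.9 (B2) at 1 month. What part markers of other cell types had in the change of the 10 genes was not tested.

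The partners of the members are the proteases C1r and C1s that bind C1q, their substrates C4 and C2 and their inhibitor Serping1, and the ligands of CSF1R. Of 7 such genes 5 were called higher at 1 month and none lower, with C4b (8.05), C1s1 (7.30) and C1ra (6.0) among them. Hepatocytes make these proteins in quantity, but which cells gave the rise was not tested. Csf1 (0.01) and Il34 (-1.34, adjusted p = 0.10 by limma) were not called. Across slides, Csf1 was called higher at 1 month than in primary hepatocytes (1.28, adjusted p = 0.031) and lower at 5 months than at 1 month (-1.28, adjusted p = 0.031) by limma. In the second of these the shared probe of its receptor Csf1r was higher (2.18). That probe was not well above background at 1 month, and with normexp background correction the difference was 0.07. A relation between the changes of ligand and receptor was not tested.

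**Figure D5:**
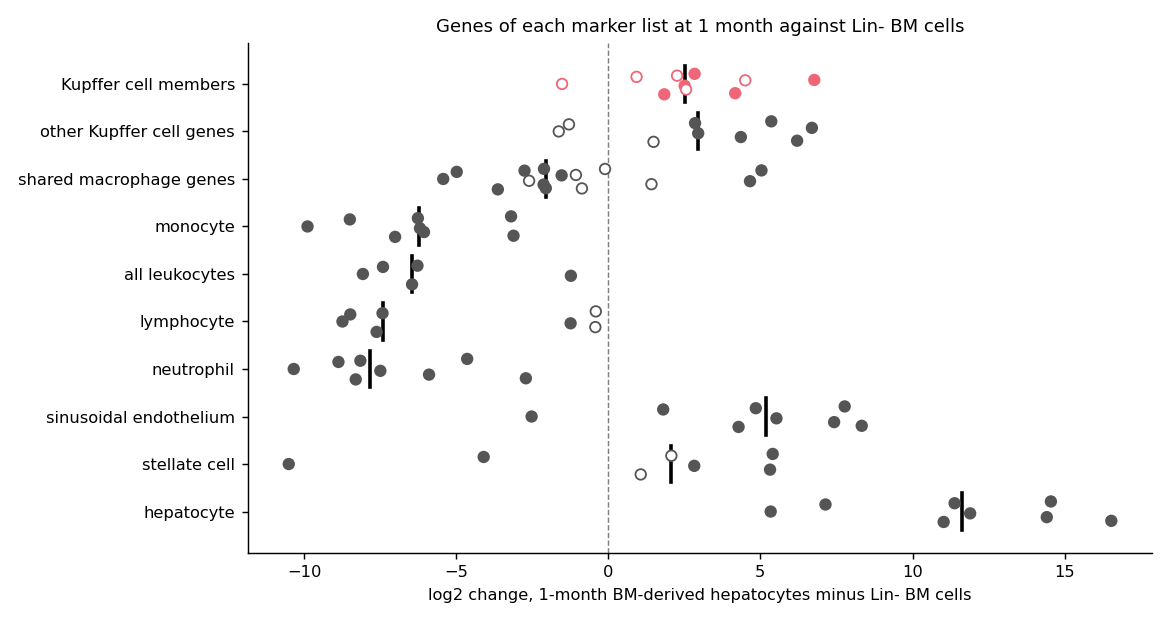
Log2 changes of single genes at 1 month against Lin- BM cells, by marker list. Filled points were called by limma, open points were not, and black bars are list medians. The 10 Kupffer cell genes have a median of 2.53, the general macrophage genes -2.05 and the monocyte genes -6.22.

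At 5 months against primary hepatocytes, no gene of any of these lists was called by limma. At an unadjusted p under 0.05, limma passed 15 of the 79 genes tested (19.0%), against 14.1% of all genes. The methods' t-test passed 5 (6.33%), and its share over all genes at that limit was not computed. The general macrophage genes were measured higher in 12 of 15 with a median of 0.69, leukocyte genes in 5 of 5 with a median of 0.73 and stellate cell genes in 7 of 8 with a median of 0.86. Monocyte genes were measured higher in 5 of 5 with a median of 0.69, and neutrophil genes in 5 of 6 with a median of 1.36. The summed neutrophil level was 13.3 (H2), 25.0 (H4), 81.6 (G1) and 15.7 (G3), high on G1 alone. The medians were 0.02 for the other Kupffer cell genes, 0.02 for hepatocyte genes and 0.02 for sinusoidal endothelial genes, against 0.04 for all genes. Spic gave 1.90 (adjusted p = 0.22 by limma), Il34 1.12, Ptprc 0.73, Csf1 -0.04, Nr1h3 -0.13, C1ra -0.16 and C1s1 -0.32. The summed leukocyte level was 6.25 (H2), 8.95 (H4), 37.1 (G1) and 32.3 (G3), higher on both 5-month arrays. Most of that sum was 1 gene, Lcp1, at 5.09 (G1) and 4.92 (G3) on the log2 scale, and its part in the levels of the 10 genes was not tested.

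Over the 8 arrays, the 28 pairs among the 8 shared genes had Pearson r between -0.08 and 0.96, with a median of 0.81. The arrays fall into 4 groups of 2 on 2 slides, so these r describe the groups as much as the arrays. The genes nearest to Clec4f were Sohlh2 (r = 0.994), Ltbr (0.993) and 4930515G13Rik (0.990). Nearest to Timd4 were Folr2 (0.983), Pcsk1n (0.981) and Olfr125 (0.966). Those nearest to Marco were Bpnt2 (0.981), Tchh (0.978) and Slc39a7 (0.962). For Cd5l they were Pcolce2 (0.982), LOC100039744 (0.967) and Sos1 (0.966). Folr2, itself a gene of liver macrophages, was among the other Kupffer cell genes.

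For the C1q chains the nearest genes were LOC100039744 (0.992), Sdc3 (0.985) and Fcna (0.981) for C1qa, and Lyve1 (0.974), Slc39a5 (0.971) and Cd300e (0.971) for C1qb. For C1qc they were Fcna (0.972), Pcolce2 (0.969) and Cd5l (0.956). Csf1r had Rc3h2 (0.978), Rbfa (0.967) and Pfkfb2 (0.949). Fcna, Pcolce2 and LOC100039744 each stood near 2 of the 8 genes, and Cd5l was the one member among the genes nearest to another.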

How the data were processed

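RNA of the 4 cell groups was hybridised to 1-colour Agilent arrays of 2 designs, 1 per slide. The authors deposited, for each array, the Agilent Feature Extraction output (version 11.5.1.1, per the file headers) with background-subtracted spot intensities and a score of 0 or 1 that marks spots well above background. They also deposited log2 values shifted to the 75th percentile in GeneSpring GX, and on each array a single constant separates them from the log2 intensities (to 0.02 or better in 99.8% of probes or more).

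From the intensities, log2 values minus the 75th percentile of each array were computed (over all probes within a slide, over the 13991 shared sequences across slides). Flagged outlier spots were left out, 6 to 152 per array. A probe entered a fit if some group had it well above background on both of its arrays, and each gene was represented by its brightest probe, which left 28522, 19929 and 9226 genes. Genes were named through RefSeq accessions where these matched (11783 of the 13991 shared sequences), otherwise by symbol, synonym (1060) or the name of the array (1148).

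Groups were compared with limma 3.58.1 in R 4.3.3 (lmFit and eBayes), with adjustment over all genes of a fit. Genes were called where the adjusted p was under 0.05 and the log2 change exceeded 0.6 in either direction, the limit of the methods. The fit was also run on simulated arrays, at the measured spread and at a smaller one. Their noise was independent between genes and arrays, so the shifts that genes of one array share are not covered. Figures were made with Python 3.11.15 and matplotlib 3.10.9.

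The 10 members and the 11 other lists were chosen with earlier results of these data known. Of the other lists the 2 largest calls in each direction were named, plus Ptprc, Spi1, Nr1h3, Spic, Csf1, Il34, C1ra and C1s1, and the 3 genes nearest to each member by Pearson r. Some genes of this rule are not reported here. The values named beyond that rule (Folr2 and Hmox1 between arrays, Lcp1) were chosen after they were seen. Other settings tried were quantile normalization, normexp background correction (offset 50), other filters on dim probes, the mean of probes or each probe as a row, the percentile over all probes, shared probes within a slide, the authors' log2 values, the methods' t-test and leaving out each array. No spot was saturated, and the number of arrays limits the precision.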

Additional observations from a re-analysis of the deposited data

Results flagged for a closer look

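The 2 time points of BM-derived hepatocytes differed, by the test of the difference itself, in 2 of the 8 Kupffer cell genes with a shared probe. Of all 9226 genes, 5.84% were called higher and 11.3% lower at 5 months. Marco had a log2 difference of 3.35, with the higher level at 5 months (SE 0.87, adjusted p = 0.045 by limma), with both 5-month arrays above both 1-month arrays. Csf1r was higher by 2.18 (SE 0.45, adjusted p = 0.023 by limma), against a 1-month level of its dim shared probe that was not well above background. With normexp background correction the Csf1r difference was 0.07, and over the 13 alternatives it ranged from 0.07 to 2.71 (adjusted p from 0.012 to 0.80). Another Csf1r probe, not shared, was well above background on both 1-month arrays. Each time point lay on its own slide, so slide and time cannot be told apart. Neither gene was called without any 1 of the 4 arrays, where calls over all genes were rarer too.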

How the results depend on the processing

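Of 84 alternative counts of called members, 63 stayed within 1.5 times and 21 moved. Of 704 alternative values of single members, 601 kept direction and side of the threshold, 54 lost a call, 23 gained one and 26 turned direction. The cause was not tested, except that a stricter filter tests fewer genes and a left-out array leaves fewer samples.

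For 1 month against Lin- BM cells the 5 calls became 0 by the methods' t-test with adjustment and 2 without. They became 2 of 6 tested where every array had to be well above background, with 7269 of 21135 genes called higher. They were 3 to 5 with 1 array left out (3 without L3 and 3 without B2), where 17.2% to 21.1% of all genes were called higher against 28.8% with all arrays. The 0 calls at 5 months against primary hepatocytes became 0 to 6 (6 without H4, 1 without H2). At 5 months against 1 month the 2 calls became 1 with normexp, where 705 of all 9226 genes were called higher. They became 0 by the adjusted t-test of the methods (0.0434% of all genes) and 1 with the stricter filter (519 of 6326 genes). Across slides that filter tested only C1qb, C1qc, Cd5l and Marco of the members. Neither call held with any 1 array of these groups left out, where calls over all genes were rarer too. At 5 months against Lin- BM cells the 6 became 3 by the adjusted t-test of the methods (18.0% of all genes). With the stricter filter they became 3 (2005 of 6326 genes), and the count also changed with 1 array left out. In primary hepatocytes the 5 became 0 (adjusted, 13.7% of all genes) and 2 (unadjusted, 22.1% of all genes) by that test. With the stricter filter they became 2 (2012 of 6326 genes), and this count too changed with 1 array left out.

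Directions turned in values that were not called. With 1 array left out, Adgre1 at 1 month against Lin- BM cells ranged from -0.28 (without B2) to 2.14. At 1 month against primary hepatocytes the ranges were -0.11 (without H2) to 1.05 for C1qb, -1.26 to 1.29 for C1qc (-0.59 without H2), -1.10 to 1.43 for Cd5l (-0.31 without H2), -1.88 to 0.66 for Clec4f (0.07 without H4) and -1.26 to 1.12 for Timd4 (0.53 without H4). At 5 months against 1 month they were -0.36 (without B1) to 2.20 for C1qc and -0.38 (without B1) to 2.0 for Timd4. In primary hepatocytes against Lin- BM cells they were -0.72 to 0.55 for Csf1r (0.23 without L3) and -0.14 (without H4) to 2.5 for Marco. With the percentile over all probes and in the authors' values, in that order, C1qc (-0.25, -0.26) and Cd5l (-0.10, -0.11) turned at 1 month against primary hepatocytes, and Csf1r (0.16, 0.16) in primary hepatocytes against Lin- BM cells, where it was 0.14 with quantile normalization. With normexp, Csf1r was 0.12 and Timd4 0.50 at 1 month against primary hepatocytes, Timd4 -0.22 at 5 months against 1 month, and Csf1r 0.19 in primary hepatocytes against Lin- BM cells.

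Csf1r at 1 month against Lin- BM cells was called lower with normexp (-1.13), the mean of probes (-1.62), shared probes (-1.70) and without B2 (-2.43). The median of all genes in that comparison was 0.36 with normexp and 0.75 without a filter, against 0.07. No paired analysis was possible because the groups compared share fewer than 2 replicate numbers. Slide as a block could not be fitted, since each slide holds groups of its own.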
